A study of Mus musculus with 5 samples.

Results

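Lipid-associated macrophages are macrophages that gather where tissue lipid is in excess, in fatty liver and obese adipose tissue, and are recognised by genes of lipid sensing, lysosomal digestion and matrix binding. The 10 marker genes described here are Trem2, Tyrobp, Gpnmb, Cd9, Cd63, Spp1, Itgax, Lgals3, Cd68 and Lpl. They were found on the arrays as the non-control probes whose deposited gene name is one of these symbols, which gave 10 of 28632 gene names and 15 of 41174 probes. The rule itself uses no signal value.

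TREM2 is a surface receptor that binds lipids and lipoprotein particles, and it has no signalling tail of its own. It passes its signal through the adaptor DAP12, the product of Tyrobp, to the kinase SYK, and supports the uptake and breakdown of lipid by the cell. In fatty liver, cells with this programme are known to derive largely from recruited monocytes, as distinct from the resident Kupffer cells. Several of the genes are not specific to macrophages in liver: Spp1 is also made by bile duct cells, Lpl by adipocytes and muscle, and Cd9, Cd63 and Lgals3 by many cell types.

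The livers came from male C57BL/6J mice, an inbred laboratory strain, at 25 weeks of age. HFHFr-F mice ate a high-fat high-fructose diet for 20 weeks and were labelled severely insulin resistant. HFHFr-FA mice ate it for 16 weeks and then for 4 weeks more with all-trans retinoic acid, the active form of vitamin A, and were labelled free of insulin resistance with slight steatosis. HFHFr-N mice went back to normal diet for 4 weeks after 16 weeks and were labelled insulin resistant. HFHFr-NA mice went back to normal diet with all-trans retinoic acid for the same 4 weeks and were labelled recovered. Control mice had no treatment. No group carried a transgene or deletion per the labels.

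Each group was 1 Agilent 1-colour array of RNA pooled from 5 mice, so the data hold no replicate and no test between groups was run. "Higher" and "lower" describe these pools, and the number of arrays limits the precision. Well above background were 48.3% of non-control spots in HFHFr-F, 49.4% in HFHFr-FA, 48.4% in HFHFr-N, 49.0% in HFHFr-NA and 46.7% in control. The HFHFr-FA array lay on another slide than the other 4 and was scanned separately, and in any comparison with it the group and the slide cannot be told apart. Signals are given scaled, as multiples of the 75th percentile of the array's non-control spots. The error used is the scanner software's own estimate for a spot, about 0.20 on the log2 scale for most ratios. In what follows, pools are said to differ beyond the scanner's error when their log2 ratio is larger than 1.96 times that error. All 11 hepatocyte markers on the arrays were well above background in all 5 groups, as the labelled tissue requires. In whole liver RNA, a change in the number of macrophages and a change in RNA per macrophage cannot be told apart.

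Of the 15 probes, 12 were well above background on at least 1 array and 3 on none. The 3 were a second probe each for Gpnmb (chr6:49007112-49007171), Cd9 (chr6:125445268-125445327, on the strand opposite to the other Cd9 probe) and Itgax (chr7:135277352-135277411), and each gene is read from its other probe. For Trem2 and Lpl both probes gave signal, and the brighter one stands for the gene. All positions of probes are on the mm9 build as the files give them; whether a probe lies in coding or untranslated sequence was not determined. For 4 genes a 60-base probe spans more than 60 bases of genome, so it crosses an intron. These 4 probes are shown because spliced transcripts and not genomic DNA match them along their whole length, with the second Trem2 probe at chr17:48491220-48491356, Tyrobp at chr7:31200651-31202378, Cd63 at chr10:128348658-128348871 and Lgals3 at chr14:48004398-48005214, all on the plus strand.
Trem2 probe: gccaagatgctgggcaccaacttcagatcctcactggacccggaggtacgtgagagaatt
Tyrobp probe: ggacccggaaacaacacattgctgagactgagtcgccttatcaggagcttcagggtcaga
Cd63 probe: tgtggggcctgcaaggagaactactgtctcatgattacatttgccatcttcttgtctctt
Lgals3 probe: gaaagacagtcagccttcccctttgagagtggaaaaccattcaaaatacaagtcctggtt

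Trem2, Cd63, Spp1 and Gpnmb were the 4 genes at least 2-fold lower when retinoic acid was added to the diet, and their promoters are shown for that reason. RefSeq (GRCm38.p6) held promoter windows for 8 of the 10 genes, each of 300 bases, 250 before the annotated start and 50 after it. The windows are chr17:48346151-48346450 for Trem2, chr10:128909095-128909394 for Cd63, chr5:104434861-104435160 for the first of the Spp1 starts and chr6:49036268-49036567 for Gpnmb, all on the plus strand. Capitals mark matches, on either strand, to GAGGAA (the core bound by ETS factors such as PU.1), TGACTCA (the AP-1 site) or AGGTCA (the half-site of many nuclear receptors, those for retinoic acid among them); CACGTG, an E-box, was also searched. No matches overlap one another in these windows.
Trem2 promoter: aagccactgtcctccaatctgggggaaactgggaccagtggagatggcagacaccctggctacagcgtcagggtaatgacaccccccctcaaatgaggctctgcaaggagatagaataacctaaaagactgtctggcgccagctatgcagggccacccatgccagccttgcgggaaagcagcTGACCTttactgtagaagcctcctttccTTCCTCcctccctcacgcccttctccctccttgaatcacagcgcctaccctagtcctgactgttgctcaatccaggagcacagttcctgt
Cd63 promoter: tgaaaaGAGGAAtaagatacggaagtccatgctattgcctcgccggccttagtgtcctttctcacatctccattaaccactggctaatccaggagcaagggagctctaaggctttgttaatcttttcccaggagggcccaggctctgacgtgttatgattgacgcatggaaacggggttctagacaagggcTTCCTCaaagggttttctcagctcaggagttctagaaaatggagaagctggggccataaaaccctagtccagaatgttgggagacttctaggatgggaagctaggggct
Spp1 promoter: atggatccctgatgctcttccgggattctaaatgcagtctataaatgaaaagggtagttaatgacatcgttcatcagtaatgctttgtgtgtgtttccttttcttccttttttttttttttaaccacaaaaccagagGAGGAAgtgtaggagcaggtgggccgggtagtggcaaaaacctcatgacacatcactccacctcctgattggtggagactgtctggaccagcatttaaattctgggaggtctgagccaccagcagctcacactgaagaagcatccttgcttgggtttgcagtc
Gpnmb promoter: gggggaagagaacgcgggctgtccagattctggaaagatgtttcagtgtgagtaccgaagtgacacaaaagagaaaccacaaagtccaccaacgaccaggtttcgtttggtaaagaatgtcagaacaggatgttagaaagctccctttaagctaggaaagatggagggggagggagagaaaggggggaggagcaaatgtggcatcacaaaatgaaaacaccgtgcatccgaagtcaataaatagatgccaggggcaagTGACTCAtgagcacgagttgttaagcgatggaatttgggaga

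The ETS core was found in the windows of 4 of 8 genes (Trem2, Cd63, Spp1 and Cd68), where 28.3% of all 32851 promoter windows hold it. The AP-1 site was found for Gpnmb, Cd68 and Itgax, against 1709 of the 32851 windows. Only Trem2 held the nuclear receptor half-site, on the minus strand with its first base 68 bases before the start (16.3% of all windows), and none of the 8 genes held the E-box (7.15%). These are matches of letters in a window and say nothing of binding.

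**Figure D1:**
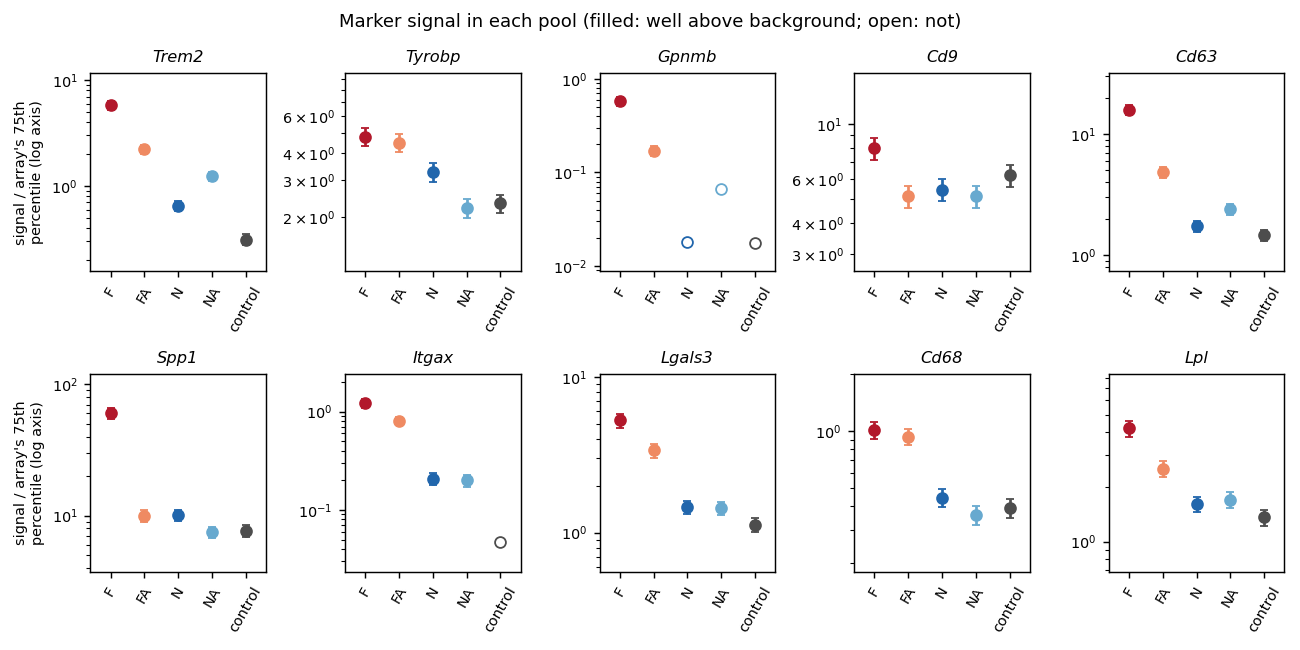
Scaled processed signal of each marker gene (log axis, its range differing between panels; multiples of the array's 75th percentile) in the HFHFr-F, HFHFr-FA, HFHFr-N, HFHFr-NA and control pools, written F, FA, N, NA and control. Filled points are well above background and open points are not; bars are the scanner's error of 1 array. All 10 genes were highest in HFHFr-F.

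Every one of the 10 genes had its highest signal in the HFHFr-F pool, and 8 of them had their second highest in HFHFr-FA. The exceptions were Spp1, second highest in HFHFr-N, and Cd9, second highest in control. In HFHFr-F and HFHFr-FA all 10 genes were well above background, in HFHFr-N and HFHFr-NA 9, and in control 8. The lowest pool of the 8 genes measured everywhere was control for 4 genes, HFHFr-NA for 3 and HFHFr-FA for 1.

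The receptor Trem2 had the widest range of these 8 genes, 4.22 on the log2 scale. Its scaled signal was 5.81 in HFHFr-F, 2.22 in HFHFr-FA, 0.648 in HFHFr-N, 1.24 in HFHFr-NA and 0.312 in control. The pool given retinoic acid with normal diet lay above the pool given normal diet alone, and each step between neighbouring pools in the order of signal was larger than 1.96 times the scanner's error. The second Trem2 probe had 1.38 in HFHFr-F, 0.466 in HFHFr-FA, 0.157 in HFHFr-N and 0.269 in HFHFr-NA, and was not well above background in control. Both probes thus gave one order of the pools.

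Tyrobp, the adaptor of TREM2 and of other activating receptors of myeloid and NK cells, had a range of 1.12 over the pools on the log2 scale. It had a scaled signal of 4.80 in HFHFr-F, 4.50 in HFHFr-FA, 3.27 in HFHFr-N, 2.21 in HFHFr-NA and 2.32 in control. The 2 pools still on the diet did not differ beyond the scanner's error, nor did HFHFr-NA and control, and HFHFr-N lay between these pairs.

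Of the lysosomal and membrane proteins, Cd63, a tetraspanin of late endosomes, lysosomes and exosomes, had 15.9 in HFHFr-F, 4.83 in HFHFr-FA, 1.74 in HFHFr-N, 2.39 in HFHFr-NA and 1.46 in control. Its order of pools was that of Trem2, with HFHFr-N and control not apart beyond the scanner's error. Cd68, the lysosomal glycoprotein used as a general macrophage marker, had 1.01 in HFHFr-F, 0.932 in HFHFr-FA, 0.443 in HFHFr-N, 0.358 in HFHFr-NA and 0.389 in control. Here the pools fell into 2 levels, the 2 on the diet and the other 3, with no neighbouring pools apart within either level.

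Gpnmb, a membrane glycoprotein of lysosome-rich macrophages, was well above background in the 2 pools on the diet alone, with 0.171 in HFHFr-FA and 0.574 in HFHFr-F. Cd9, a tetraspanin of the cell surface found on many cells, had 7.98 in HFHFr-F, 5.11 in HFHFr-FA, 5.44 in HFHFr-N, 5.12 in HFHFr-NA and 6.20 in control. No 2 neighbouring pools in its order differed beyond the scanner's error, but HFHFr-FA and HFHFr-N lay below HFHFr-F beyond it, with log2 ratios of -0.64 and -0.55. This was not particular to those pools: HFHFr-NA, for which no ratio to HFHFr-F was taken, had about the signal of HFHFr-FA. Itgax, the CD11c integrin chain of dendritic cells and activated macrophages, had 1.22 in HFHFr-F, 0.807 in HFHFr-FA, 0.209 in HFHFr-N and 0.201 in HFHFr-NA, and was not well above background in control. The pools on the diet were the higher ones, and HFHFr-N and HFHFr-NA did not differ beyond the error.

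Among the secreted proteins, Spp1 (osteopontin), a matrix protein and cytokine, was the only gene of the 10 spotted 10 times on each array. Its processed signal, before scaling, averaged 13463 ± 474 over 10 spots in HFHFr-F, 2119 ± 52.7 over 9 in HFHFr-FA, 1741 ± 49.2 over 10 in HFHFr-N, 1343 ± 48.4 over 9 in HFHFr-NA and 1334 ± 63.8 over 9 in control (SD over spots of 1 array, without those marked as outliers). Scaled, this was 60.4 in HFHFr-F, 10.003 in HFHFr-FA, 10.1 in HFHFr-N, 7.47 in HFHFr-NA and 7.66 in control. The HFHFr-F pool stood alone, and no neighbouring pools among the other 4 differed beyond the scanner's error, while HFHFr-NA and HFHFr-N, which are not neighbours in that order, were apart by a log2 ratio of -0.43 ± 0.20. The spots themselves were apart: the lowest scaled spots of HFHFr-FA (9.69) and HFHFr-N (9.74) lay above the highest of HFHFr-NA (7.89) and control (8.12).

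**Figure D2:**
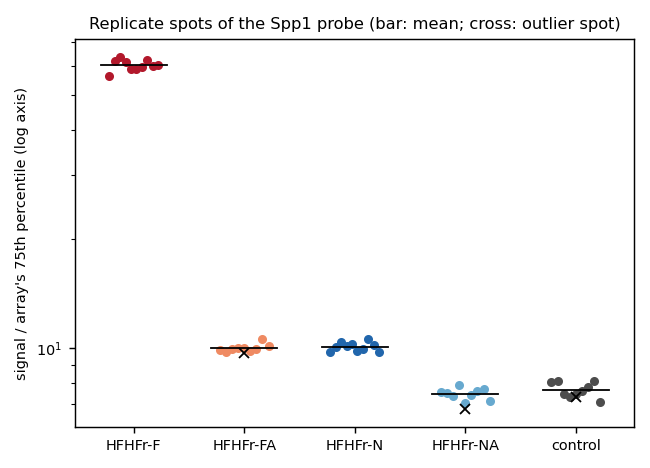
Scaled signal of each replicate spot of the Spp1 probe (log axis; multiples of the array's 75th percentile) in the 5 pools, with the mean as a bar and spots marked as outliers as crosses. All HFHFr-F spots lie above all spots of the other pools, and all HFHFr-FA and HFHFr-N spots above all those of HFHFr-NA and control. Spots of 1 array share the pool and are not replicates of it.

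Lgals3 (galectin-3), a sugar-binding protein released by activated macrophages, had 5.24 in HFHFr-F, 3.37 in HFHFr-FA, 1.45 in HFHFr-N, 1.43 in HFHFr-NA and 1.12 in control. Lpl (lipoprotein lipase), which releases fatty acids from circulating triglyceride, had 4.21 in HFHFr-F, 2.51 in HFHFr-FA, 1.61 in HFHFr-N, 1.70 in HFHFr-NA and 1.36 in control. For both genes HFHFr-F was highest and HFHFr-FA second, and none of the 3 pools not on the diet differed from its neighbour beyond the error. The second Lpl probe had 1.12 in HFHFr-F, 0.587 in HFHFr-FA, 0.334 in HFHFr-N, 0.330 in HFHFr-NA and 0.393 in control. Control thus lay above the HFHFr-N and HFHFr-NA pools, but it differed from neither beyond the scanner's error.

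**Figure D3:**
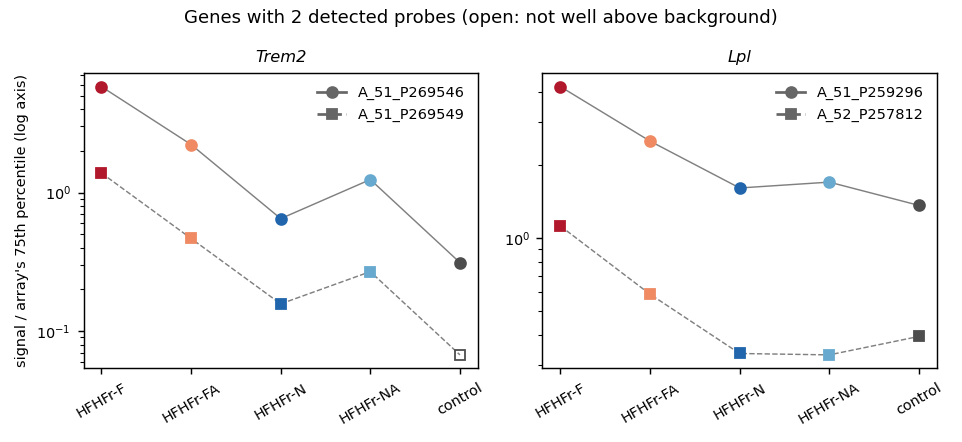
Scaled signal (log axis; multiples of the array's 75th percentile) of both detected probes of Trem2 and of Lpl in the 5 pools; an open symbol is not well above background. The Trem2 probes give one order of pools, while the lower Lpl probe has 0.334 in HFHFr-N and 0.393 in control where the upper one has 1.61 in HFHFr-N and 1.36 in control. For neither Lpl probe do these 2 pools differ by more than 1.96 times the scanner's error.

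HFHFr-F was set against control to describe the markers after the whole time on the diet. Of the 10 genes, 9 had at least 2-fold more signal in HFHFr-F and 0 had less, where 5.38% of 14628 measured genes were higher and 3.23% lower. Gpnmb and Itgax entered as bounds, well above background in HFHFr-F but not in control, and could not have come out lower. With detection required on both arrays, 7 of 8 genes were at least 2-fold higher, beside 602 of 13353 over all genes. In the comparisons below too, a bound could not have come out in the other direction. The median log2 ratio was 1.93 over the 8 genes measured on both arrays and 2.48 with the bounds of the other 2, against -0.10 and -0.08 over all genes. Trem2 had a log2 ratio of 4.22 ± 0.22 (scanner error), or 18.6-fold, and its second probe gave at least 4.00. Cd63 was 10.9-fold and Spp1 7.88-fold higher. Lgals3 was 4.67-fold, Lpl 3.09-fold, Cd68 2.59-fold and Tyrobp 2.07-fold higher. Itgax was at least 14.2-fold and Gpnmb at least 6.65-fold higher; in such a bound the dim array stands at its own signal or at the lowest signal well above background there, whichever is higher. Cd9 had a ratio of 0.36 and was the 1 gene under 2-fold. With normexp background correction and quantile normalization Trem2 had 3.09, Itgax 1.89, Gpnmb 1.42 and Cd68 0.82, the last under 2-fold, and with the mean of all probes Itgax had 1.06 and Gpnmb 0.30.

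**Figure D4:**
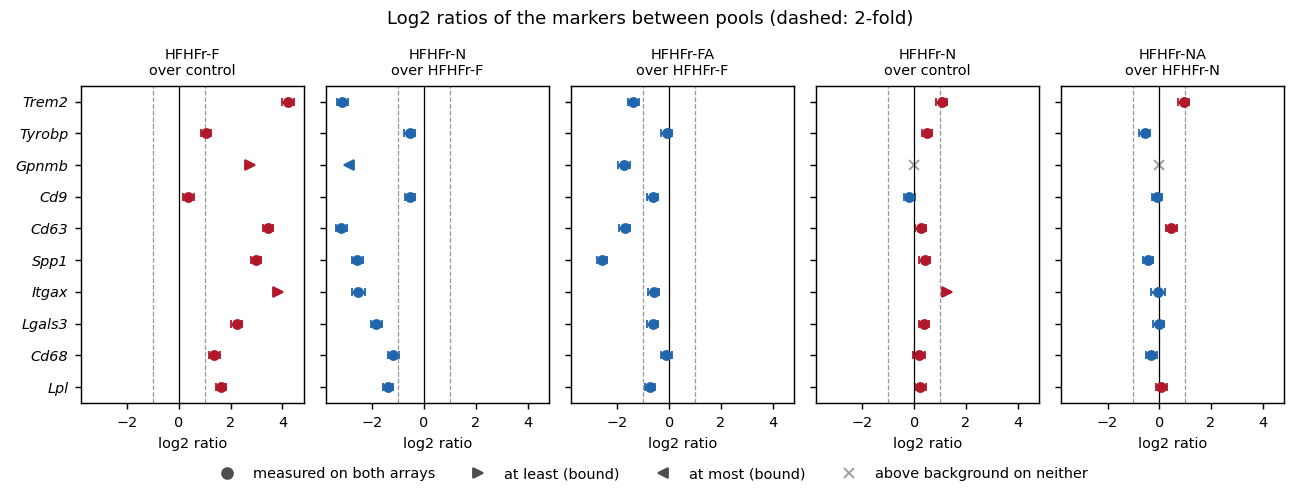
Log2 ratios of the 10 marker genes in 5 pairs of pools, with dashed lines at 2-fold, triangles for bounds, crosses where neither array was above background, and bars for the scanner's error. In HFHFr-F over control 9 genes lie past 2-fold, and in HFHFr-FA over HFHFr-F 4 do.

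HFHFr-N was set against HFHFr-F to describe livers taken off the diet beside livers kept on it. In HFHFr-N 8 of the 10 genes were lower by 2-fold or more and 0 higher, where 3.64% of 14799 genes were lower and 2.14% higher, and the median was -1.85 over 9 genes measured on both arrays, against 0.10 over all genes. Cd63 had a log2 ratio of -3.19 (9.15-fold lower), Trem2 -3.16 (8.96-fold), Spp1 -2.58 (5.98-fold) and Itgax -2.55 (5.86-fold). Gpnmb was at least 7.42-fold lower. Lgals3 had -1.85, Lpl -1.39 and Cd68 -1.19, while Tyrobp and Cd9, at -0.55 each, were under 2-fold. Normexp with quantile normalization gave -1.36 for Gpnmb, -1.38 for Itgax and -0.69 for Cd68, and the mean of all probes gave -0.46 for Gpnmb and -0.80 for Itgax.

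HFHFr-N was also set against control, for what remained apart after 4 weeks of normal diet. Of 9 genes, 2 were higher by 2-fold or more and 0 lower, where 1.14% of 14506 genes were higher and 0.834% lower. Trem2 had a log2 ratio of 1.05 ± 0.23 (scanner error), or 2.08-fold, and Itgax was at least 2.42-fold higher. With normexp background correction and quantile normalization neither reached 2-fold, with Trem2 at 0.40 and Itgax at 0.51. The other 7 genes had ratios between -0.19 (Cd9) and 0.50 (Tyrobp), and Gpnmb was above background in neither pool.

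HFHFr-FA was set against HFHFr-F for the addition of retinoic acid while the diet went on. All 10 genes had ratios below 0, and 4 of them, with 0 higher, were past 2-fold, where 2.81% of 14925 genes were lower and 2.78% higher; the median was -0.70 against 0.02 over all genes measured on both arrays. Spp1 had the lowest ratio, -2.59 (6.03-fold lower). Gpnmb had -1.74 (3.35-fold), Cd63 -1.72 (3.29-fold) and Trem2 -1.39 (2.62-fold). Lpl (-0.75), Lgals3 (-0.64), Cd9 (-0.64) and Itgax (-0.60) were under 2-fold. The general macrophage gene Cd68 (-0.11) and the adaptor Tyrobp (-0.09) did not differ beyond the scanner's error. Gpnmb was at -0.97 with normexp and quantile normalization and at -0.94 as the mean of its probes, of which one was never above background.

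HFHFr-NA was set against HFHFr-N for retinoic acid given with normal diet. Here 0 of 9 genes reached 2-fold in either direction, where 1.51% of 14873 genes were higher and 1.33% lower, and the median was -0.05. Trem2 had a ratio of 0.94 ± 0.21 and its second probe 0.77, Cd63 0.46 ± 0.21, Tyrobp -0.57 ± 0.20 and Spp1 -0.43 ± 0.20 (scanner error). The 5 others had ratios between -0.31 (Cd68) and 0.08 (Lpl).

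Against control, HFHFr-FA had 5 of 10 genes higher by 2-fold or more and 0 lower (4.50% and 1.92% of all genes). These ratios, and those of HFHFr-NA over control, share the control array with the ones above. In HFHFr-FA Trem2 was 7.11-fold, Cd63 3.30-fold and Cd68 2.39-fold higher, Lgals3 had a log2 ratio of 1.59, and Itgax at least 9.35-fold. Gpnmb was higher by at least 1.98-fold, a bound that does not settle whether it reached 2-fold, and had a log2 ratio of 3.29 without the filter on background. Spp1, at 0.38, was under 2-fold there, as were Tyrobp (0.96) and Lpl (0.88), and Cd9 had -0.28. Over the alternatives the count in HFHFr-FA lay between 4, among others with normexp and quantile normalization (Trem2 1.87 and Cd68 0.82 on the log2 scale), and 7, with cyclic loess. In HFHFr-NA Trem2 was 3.98-fold higher, Itgax at least 2.33-fold, and Cd63 had 0.71; Spp1 (-0.04), Tyrobp (-0.07) and Cd68 (-0.12) were close to control. With normexp and quantile normalization Trem2 had a log2 ratio of 1.13 in HFHFr-NA over control and Itgax 0.50, and with the mean of all probes Itgax had 0.43, so that Itgax did not reach 2-fold under either.

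Genes that act with TREM2 or share its pathway were described next, from lists chosen with earlier results of these data known. Of 11 measured genes of TREM2-DAP12 signalling, 5 were at least 2-fold higher in HFHFr-F than in control and 0 lower, beside 5.38% and 3.23% of all genes. Vav1, an exchange factor for small GTPases, had a log2 ratio of 1.31, the kinase Btk 1.29 and Inpp5d (the phosphatase SHIP1, a brake on the pathway) 1.15; the kinases Syk (1.11) and Pik3cd (1.02) are named after their values were seen. In HFHFr-N against HFHFr-F 3 of 11 were lower (3.64% of all genes), Btk at -1.41, Inpp5d at -1.06 and Vav1 at -1.04. In HFHFr-FA against HFHFr-F 0 of 11 reached 2-fold in either direction, where 2.78% of all genes were higher and 2.81% lower. Of the 11 ratios 6 were above 0 and 5 below, with a median of 0.04. The highest were Vav3 at 0.66 and Syk at 0.58, and the lowest was -0.45. Vav3 lay close to background in HFHFr-F, with a processed signal of 18.8 where the lowest well above background was 16.4. The receptors Trem1 and Trem3 were above background on no array.

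Genes of the lysosome and of lipid handling were higher in 6 of 24 cases and lower in 0 in HFHFr-F against control, with a median of 0.44 over the 22 measured on both arrays; the shares over all genes were 5.38% higher and 3.23% lower, and their median was -0.10. Fabp4, a fatty acid binding protein of macrophages and adipocytes, had 2.04 and the protease gene Ctss 1.26. In HFHFr-FA against HFHFr-F 0 of 24 reached 2-fold (2.78% of all genes were higher and 2.81% lower), and the median was -0.29. The scavenger receptor Cd36 had the lowest ratio of that list there, -0.89.

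Markers of other macrophages and cell types were counted in the same way. Genes of macrophages in injured liver were higher in HFHFr-F than in control for 12 of 16 and lower for 0 (5.38% and 3.23% of all genes), with the monocyte chemoattractant Ccl2 at 3.30, Ccl4 at 3.28 or more and Ly6c2, a surface protein of monocytes, at 2.74. Of these 16 genes, 4 were bounds, well above background in HFHFr-F but not in control, and could not have come out lower. The 12 measured on both arrays all had ratios above 0, with a median of 1.43. In HFHFr-N against HFHFr-F 9 of those 16 were lower (3.64% of all genes), and in HFHFr-FA against HFHFr-F 3 were (2.81%), Cx3cr1 at -1.55 or lower, Ms4a7 at -1.31 and Ly6c2 at -1.18. In HFHFr-FA against HFHFr-F 15 genes of the list were measured on both arrays. Of these, 5 had ratios above 0, up to 0.35, and 10 below, and the median was -0.18. Of 6 spots beside the Cx3cr1 probe, 2 were also at least 2-fold higher in HFHFr-F than in control, and the part of that area of the array in the Cx3cr1 value was not tested. Of 17 Kupffer cell markers, all well above background in all 5 pools, 2 were higher in HFHFr-F than in control, Marco at 1.13 and Cd5l at 1.12, where 5.38% of all genes were. Of the 17 ratios 12 were above 0 and 5 below, Timd4 at -0.87 and Cd163 at -0.58 among the latter. With retinoic acid on the diet 2 of the 17 were higher than in HFHFr-F (2.78% of all genes), Id3 at 1.12 and Timd4, a receptor of resident Kupffer cells, at 1.08, and 0 were lower (2.81%). Against control, Timd4 in HFHFr-FA had 0.22 and Id3 1.09. On normal diet with retinoic acid the Kupffer list had 0 past 2-fold against HFHFr-N, where 1.51% of all genes were higher and 1.33% lower. Its median was -0.37, and Adgre1, a surface receptor of mature macrophages, had -0.94.

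Summed scaled signals give the size of these lists in each pool. Each sum covers only the genes well above background in that pool, so most are taken over different numbers of genes. In the order HFHFr-F, HFHFr-FA, HFHFr-N, HFHFr-NA and control these were 10, 10, 9, 9 and 8 of the markers. They were 17 Kupffer markers in every pool, and 16, 15, 13, 13 and 12 genes of macrophages in injured liver. The markers summed to 107 in HFHFr-F, 34.4 in HFHFr-FA, 24.9 in HFHFr-N, 22.1 in HFHFr-NA and 20.8 in control, of which Spp1 made up 60.4 in HFHFr-F. The Kupffer markers summed to 228 in HFHFr-F, 228 in HFHFr-FA, 177 in HFHFr-N, 158 in HFHFr-NA and 149 in control. The genes of macrophages in injured liver summed to 77.2 in HFHFr-F, 60.3 in HFHFr-FA, 38.6 in HFHFr-N, 38.4 in HFHFr-NA and 33.4 in control.

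Bile duct markers bear on Spp1 and adipocyte markers on Lpl. Of 9 measured cholangiocyte markers 4 were higher in HFHFr-F than in control (5.38% of all genes), Tspan8 at 1.91 or more, Krt19 at 1.30 or more, Krt7 at 1.19 and Cldn7 at 1.14. In HFHFr-FA against HFHFr-F 3 were lower (2.81% of all genes), Tspan8 at -2.10 or lower, Cldn7 at -1.43 and Cdh1 at -1.07, and in HFHFr-N against HFHFr-F 6 were (3.64%). The summed signal of those well above background was 5.28 over 9 genes in HFHFr-F, 3.15 over 7 in HFHFr-FA and 2.20 over 6 in HFHFr-N. It was 3.20 over 7 in HFHFr-NA and 3.21 over 6 in control, with Cftr, Cldn4 and Muc1 above background on no array. The part of bile duct cells in the Spp1 signal was not tested. Of the adipocyte markers Adipoq, Plin1, Lep and Retn were above background on no array; 3 of the 5 measured ones were higher in HFHFr-F than in control, Plin4 at 1.74, Car3 at 1.34 and Cidec at 1.07, genes that hepatocytes of fatty liver express as well, and their part in the Lpl signal was not tested. Among the other cell types in HFHFr-F against control, where 5.38% of all genes were higher and 3.23% lower, stellate and fibroblast markers were higher in 6 of 13 cases, led by Col1a1 at 4.12, neutrophil markers in 2 of 3 (S100a8 at 1.67 or more and S100a9 at 1.47), dendritic cell markers in 2 of 7 (H2-Eb1 at 1.06 and H2-Ab1 at 1.01) and T and NK cell markers in 2 of 8 (Klrd1 at 1.27 and Gzma at 1.09 or more). Among genes measured on both arrays, 1 of 2 neutrophil markers was below 0, Csf3r at -0.12. So was 1 of 6 dendritic cell markers, Xcr1 at -0.70, while Zbtb46 had 0.005. Of 5 T and NK cell markers 1 was below 0, Cd3d at -0.44, and Cd3e had 0.02. B and plasma cell markers (4 genes) and endothelial markers (10 genes) had 0 past 2-fold, and of 11 hepatocyte markers 2 were lower, Cps1 at -1.37 and Tat at -1.26. Stellate and fibroblast markers were lower than in HFHFr-F for 6 of 13 in HFHFr-N (3.64% of all genes) and for 4 of 14 in HFHFr-FA (2.81%), with 1 of the 14 higher (2.78%). Col1a1 had -3.15 in HFHFr-N and -1.72 in HFHFr-FA. Neutrophil markers were higher in HFHFr-FA than in HFHFr-F for 2 of 6, Csf3r at 1.09 and S100a8 at 1.02, and lower for 0. The shares over all genes were 2.78% higher and 2.81% lower, and 3 of the 6 entered as bounds. The part of these cells in the values of the 10 genes was not tested.

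**Figure D5:**
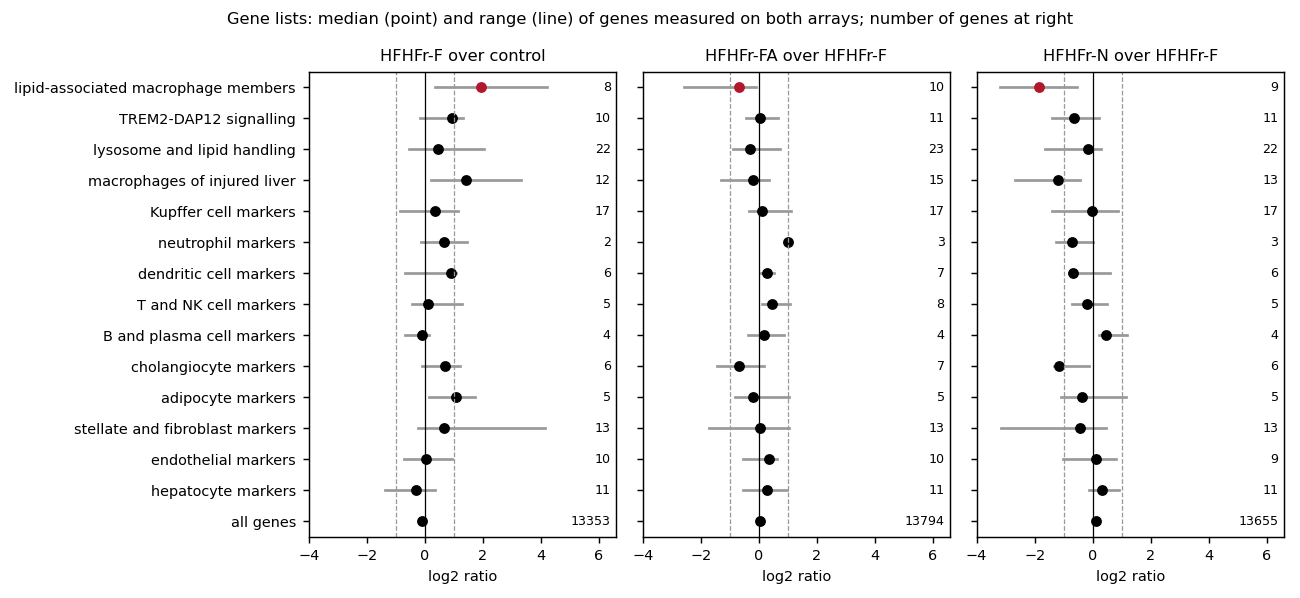
Median log2 ratio (point) and range (line) of the 10 marker genes and 13 other gene lists, and the median of all genes, in HFHFr-F over control, HFHFr-FA over HFHFr-F and HFHFr-N over HFHFr-F, with the number of genes measured on both arrays at right and dashed lines at 2-fold. The 10 genes have medians of 1.93, -0.70 and -1.85, the Kupffer cell markers 0.34, 0.11 and -0.03.

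The spots beside the probes of the 10 genes had median log2 ratios between -0.38 and 0.24 in HFHFr-F over control and between -0.24 and 0.54 in HFHFr-FA over HFHFr-F, over 4 to 62 spots a gene. The widest of these, 0.54 over 5 spots, was that of Trem2 in HFHFr-FA over HFHFr-F, where Trem2 itself had -1.39. Some single spots were at least 2-fold higher in HFHFr-F over control. They were 2 of 5 beside Cd9, 2 of 7 beside Lgals3, 1 of 4 beside Trem2 and 1 of 4 beside Cd68. Tyrobp and Itgax had 1 of 6 each, Spp1 10 of 61, and Gpnmb, Cd63 and Lpl 0. At least 2-fold lower were 1 spot beside Gpnmb and 1 beside Spp1. The part of these areas in the values of the 10 genes was not tested.

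Among 10993 other genes well above background on all 5 arrays whose name is a current RefSeq symbol, those whose log2 pattern over the 5 pools was closest to Trem2 were Ubd, a ubiquitin-like protein induced by inflammation, with a root-mean-square difference of 0.37, then Ifi27l2b (0.48), Col1a1, a chain of type I collagen (0.55), Nol3 (0.57), Clec7a, the beta-glucan receptor of myeloid cells (0.57), and Chil3 (0.59). Ubd had processed signals, before scaling, of 4360 in HFHFr-F, 1389 in HFHFr-FA, 269 in HFHFr-N, 351 in HFHFr-NA and 145 in control. Closest to the mean pattern of the 8 genes measured on all arrays were Ddr1, a collagen receptor (0.086), S100a6 (0.092), Col1a2 (0.10), Ifi44 (0.12), Klf6 (0.12) and Fabp4 (0.12). These likenesses rest on 5 arrays that share 1 scaling and are descriptions.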

How the data were processed

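Liver RNA of 5 groups was measured on 5 Agilent 4x44K 1-colour (Cy3) arrays. The file headers name Feature Extraction 10.5.1.1 as the software that read the spots. The processed intensity the authors deposited is background-subtracted and detrended within each array and is not scaled between arrays. The authors' value table was deposited as a ratio, each intensity divided by 1 constant for its array (214.7 in HFHFr-F, 204.3 in HFHFr-FA, 165.3 in HFHFr-N, 173.0 in HFHFr-NA and 166.9 in control), as found from the scanner values; genes are not centred, it runs in the direction of the signal, and its column medians were 0.0675, 0.0721, 0.0738, 0.0744 and 0.0700 in that order. Each constant lay next to the array's 75th percentile taken over every spot, 214.688 in HFHFr-F and 166.895 in control.

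Here log2 of the processed signal minus that of the array's 75th percentile was taken per spot and averaged per probe, without outlier spots (60 to 96 an array). No spot was saturated. Probes were named through their RefSeq accession (24844) or kept the file's name (16330), and the brightest probe stood for a gene. A gene entered a comparison when well above background on at least 1 of 2 arrays. Genes at least 2-fold apart were counted beside the same count over all genes; with 1 array a group there was no test. The rule for named genes took the 10 members, up to 3 genes with the largest ratios from each of 13 other lists, and the 6 genes closest to each of 2 patterns; the text gives part of them, and some listed genes are not reported here. The members, lists and comparisons were chosen with earlier results of these data known. The counting was tested on simulated data. Alternatives used limma 3.58.1 (R 4.3.3) with quantile normalization, cyclic loess or normexp with an offset of 50; other steps used Python 3.11.15.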

Additional observations from a re-analysis of the deposited data

Results flagged for a closer look

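For 3 genes the retinoic acid ratio was below 0 on the high-fat high-fructose diet and above 0 on normal diet, with 1 pool on each side, and the difference between the diets was not tested. Trem2 had a log2 ratio of -1.39 in HFHFr-FA over HFHFr-F and 0.94 in HFHFr-NA over HFHFr-N, and its second probe -1.57 and 0.77. Cd63 had -1.72 and 0.46 in these comparisons. Lpl had -0.75 in HFHFr-FA over HFHFr-F and 0.080 in HFHFr-NA over HFHFr-N, but the second value lay within the scanner's error and the other Lpl probe gave -0.93 and -0.02. HFHFr-FA was on a slide of its own, and its part in these values was not tested.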

How the results depend on the processing

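No paired analysis was possible because each group has 1 array. Of the 30 member ratios of at least 2-fold, set against 9 alternatives in 264 cases, 264 kept their sign and 250 were still at least 2-fold. The count of members higher in HFHFr-N than in control, 2, was 0 with normexp and quantile normalization, 1 with the mean of all probes and 1 with detection required on both arrays. The count higher in HFHFr-NA than in HFHFr-N, 0, was 1 without a detection filter. In HFHFr-F over control the count of 9 ranged from 7 to 9, and Cd68 fell below 2-fold with normexp (0.82), Gpnmb with the mean of its probes (0.30). Of the ratios under 2-fold, Cd68 in HFHFr-FA over HFHFr-F was 0.00 with normexp, and Cd9 and Itgax in HFHFr-NA over HFHFr-N were 0.20 and 0.16 with the mean of probes. Over all genes, counts of higher and lower genes with normexp were 335 and 142 in HFHFr-F over control (main 787 and 473), 76 and 192 in HFHFr-N over HFHFr-F (317 and 539), 134 and 151 in HFHFr-FA over HFHFr-F (415 and 419), 47 and 31 in HFHFr-N over control (166 and 121) and 50 and 43 in HFHFr-NA over HFHFr-N (225 and 198); without a detection filter they were 1558 and 1564, 1494 and 1238, 1284 and 1186, 979 and 866, and 1049 and 1062. The share of higher genes moved from 62.5% to 74.2% (cyclic loess) in HFHFr-F over control, from 37.0% to 25.8% (median centring) and 24.4% (cyclic loess) in HFHFr-N over HFHFr-F, and from 49.8% to 35.9% and 39.7% in HFHFr-FA over HFHFr-F. Cyclic loess moved the median of all genes from -0.08 to 0.02 in HFHFr-F over control and from 0.10 to -0.01 in HFHFr-N over HFHFr-F. The causes were not tested. Signals near background limit Gpnmb and Itgax to bounds, and spread between mice, extractions and arrays is unknown.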
